A study of Mus musculus with 10 samples.

Results

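Immediate early genes and genes of the response to tissue dissociation were followed in 3 populations of mouse endothelial cells sorted from lymph node (LN) or diaphragm. The list held 37 gene symbols. Its members are defined by name and not by a threshold on measured values, but they were proposed with earlier results of these data known, so that their counts are a description of a chosen list. All 37 were found among the 23284 symbols of the count table. LN lymphatic endothelial cells (LN-LEC, 4 libraries) and LN blood endothelial cells (LN-BEC, 3 libraries) came from peripheral and mesenteric nodes pooled together, and diaphragm lymphatic endothelial cells (D-LEC, 3 libraries) from diaphragm tissue. All libraries came from wild-type C57BL/6 mice of 6 to 8 weeks, and each is a pool of several animals, so that errors and p-values describe the spread between pools. Single-cell suspensions were made with enzymes and most leukocytes were removed on beads. The sort gate then took endothelial cells (CD31+ CD45-), with PDPN+ cells as LEC and PDPN- cells as BEC. The methods state that diaphragm was handled like the nodes and list no separate times or enzymes for it. All 10 libraries came from dissociated and sorted cells, so that levels in intact tissue were not measured, and tissue of origin and any difference in dissociation between diaphragm and nodes cannot be told apart.

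Immediate early genes are switched on within minutes of a stimulus, from transcription factors that are already present in the cell and without new protein synthesis. Growth factors, shear, stretch, and the cutting and enzymatic digestion of a tissue all induce them through MAP kinase, SRF and CREB signaling. Many encode transcription factors of the AP-1, Egr and Nr4a families, while others encode proteins that end the response, such as MAP kinase phosphatases, mRNA decay proteins, and inhibitors of cytokine and NF-κB signaling. Their mRNAs are short-lived, and AU-rich elements in the 3′ untranslated region mark many of them for decay.

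Matches to promoter motifs through which such signals can reach early genes are shown first. Levels were not compared between members with and without a motif. Over the 400 bases upstream of the annotated start on the mm9 build, both strands were searched for the CArG box, which SRF binds as CC and GG around a core of A and T, and the cAMP response element (CRE, TGACGTCA), which CREB and ATF proteins bind. A CArG box was present in 7 of 37 members, or 18.9%, compared to 1.93% of 15316 promoters of tested genes. A CRE was present in 5 members, or 13.5%, compared to 2.72% of all promoters. Capitals mark the CArG box in the following windows, each written 5′ to 3′ on the strand of the gene and taken from the reference sequence.
Fos, chr12:86814516-86814555, plus strand: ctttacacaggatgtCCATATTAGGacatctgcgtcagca
Fosb, chr7:19895642-19895681, minus strand: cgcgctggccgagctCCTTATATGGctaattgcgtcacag
Egr2, chr10:67000227-67000266, plus strand: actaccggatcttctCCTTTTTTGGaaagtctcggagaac
Egr2, chr10:67000530-67000569, plus strand: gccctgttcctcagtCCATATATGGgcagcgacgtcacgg
Zfp36, chr7:29164281-29164320, minus strand: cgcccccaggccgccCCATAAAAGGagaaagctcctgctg
Gadd45g, chr13:51941769-51941808, plus strand: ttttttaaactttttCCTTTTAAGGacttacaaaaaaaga
Dusp5, chr19:53603538-53603587, plus strand: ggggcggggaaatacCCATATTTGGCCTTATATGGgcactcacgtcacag

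The seventh member with a CArG box was Egr1, whose window is not shown. Egr2 carried a pair of boxes far apart, whereas both boxes of Dusp5 lay side by side. Capitals mark the CRE in the windows of the 5 members that had one.
Btg2, chr1:135975876-135975913, minus strand: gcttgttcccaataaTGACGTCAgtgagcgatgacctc
Dusp1, chr17:26645538-26645575, minus strand: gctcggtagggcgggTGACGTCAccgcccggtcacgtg
Ier2, chr8:87186774-87186811, minus strand: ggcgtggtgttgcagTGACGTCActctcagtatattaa
Maff, chr15:79177906-79177943, plus strand: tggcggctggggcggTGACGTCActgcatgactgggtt
Ppp1r15a, chr7:52781639-52781665, minus strand: accccgcctctccggTGACGTCAgcac

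No member had both a CArG box and a full CRE in this window, and no match overlapped a match to a different motif in a member. The Egr site (GCGNGGGCG) was present in 10 members, or 27.0%, compared to 9.96% of all promoters, and the NF-κB site in 10 members, or 27.0%, compared to 1993 of the 15316 promoters. The TATA box (TATAAA) was found in 8 members, or 21.6%, compared to 13.7%, and the AP-1 site (TGANTCA) in 3 members, or 8.11%, compared to 7.99%. A match to these letters was counted as a match only, and binding was not measured. In the 3′ untranslated regions of the GENCODE vM1 annotation, the pentamer ATTTA occurred at a median of 2.53 per kb in the 37 members and 1.12 per kb over 14683 genes. The longer AU-rich element TTATTTATT was present in 10 members, or 27.03%, and in 7.24% of all genes, while the median length of the region was 1109 bases for members and 1090 bases overall. The 10 members with the longer element were Fos, Fosl2, Maff, Csrnp1, Dusp1, Zfp36, Zfp36l1, Nfkbia, Tnfaip3 and Ppp1r15a.

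The libraries held 22429940 to 48906070 counted fragments, and the members together summed to 4303 to 6371 CPM (counts scaled to the library total) in LN-LEC, 7026 to 8319 CPM in LN-BEC and 14258.5 to 14625.7 CPM in D-LEC. Levels are given as counts divided by DESeq2 size factors (normalized count), each library in the order of its replicate number. The sorted populations carried the endothelial identity on their labels. The summed normalized count of 5 lymphatic markers (Prox1, Lyve1, Pdpn, Reln and Flt4) was 94668 to 119450 in LN-LEC, 387239 to 415551 in D-LEC and 2891 to 7955 in LN-BEC. That of 5 blood endothelial markers (Flt1, Nrp1, Vwf, Notch4 and Emcn) was 85991 to 90435 in LN-BEC, 1309 to 2240 in LN-LEC and 5623 to 8005 in D-LEC. The LEC populations did not overlap in this blood endothelial sum, but its genes did not all go the same way. In the means the paper reports, Flt1 and Nrp1 were lower in D-LEC than in LN-LEC, while Vwf and Notch4 were higher. The sum is therefore no measure of blood endothelial cells in the LEC populations, and its part in the levels of the members was not tested. In bulk RNA, fewer cells of a type and less RNA per cell cannot be told apart.

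Before the comparisons, 2 libraries have to be set apart, LN-LEC replicate 4 and LN-BEC replicate 3, which carry the last of the consecutive library numbers. The labels name no batch or date for them. They were set apart with the levels of these same members known. Fits without them follow from that choice, so that their SE and p-values are a description and no independent support. In LN-LEC replicate 4, 11 of 37 members were at least 2-fold above the mean of the other 3 LN-LEC libraries, compared to 6.5% of 15330 tested genes. Fosb was 4.43-fold, Egr2 3.70-fold, Fos 3.56-fold, Zfp36 3.36-fold, Dusp1 3.33-fold and Nr4a1 3.30-fold above them. Not all members followed this pattern, since Tnfaip3 was 0.971-fold, Fosl2 0.996-fold, Ier3 0.862-fold and Myc 0.867-fold the mean of the other 3. LN-LEC replicate 4 was the highest LN-LEC library for 24 members (29.8% of all tested genes), and it was also the deepest library. In LN-BEC replicate 3, 2 members were at least 2-fold above the other LN-BEC libraries (Atf3 2.61-fold and Fos 2.26-fold), compared to 9.09% of all tested genes. It was nevertheless the highest LN-BEC library for 28 members, compared to 40% of all tested genes. For 22 members both libraries were the highest of their population, which held for 16.8% of all tested genes. The sum of lymphatic markers was also highest in LN-BEC replicate 3, at 7955 compared to 2891 and 4007 in the other LN-BEC libraries, and among LN-LEC libraries replicate 4 had the lowest lymphatic sum (94668 compared to 106397 to 119450), the highest blood endothelial sum (2240 compared to 1309 to 2017) and the highest leukocyte sum (1029.7 compared to 784 to 878). The part of these markers in the levels of the members was not tested. In the D-LEC libraries, 0, 1 and 0 members were at least 2-fold above the other replicates, compared to 5.62%, 4.34% and 4.59% of all tested genes. In LN-LEC replicates 1 to 3 these were 2, 1 and 1 members, compared to 3.91%, 3.18% and 2.81%, and in LN-BEC replicates 1 and 2 they were 2 and 0 members, compared to 4.34% and 2.81%. Those in LN-LEC replicates 1 to 3 and LN-BEC replicate 1 were all among Fosl1, Egr3, Nr4a3 and Dusp5. These genes stay under 50 normalized counts in each library, so that such folds rest on few counts. By Dixon's ratio, 15 members had 1 LN-LEC library separated from the other 3, compared to 9.11% of all tested genes. The spread between replicates, expressed as the biological coefficient of variation of the edgeR fit, had a median of 0.223 over members and 0.154 over all tested genes, and 26 of 37 members lay above the latter.

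**Figure D1:**
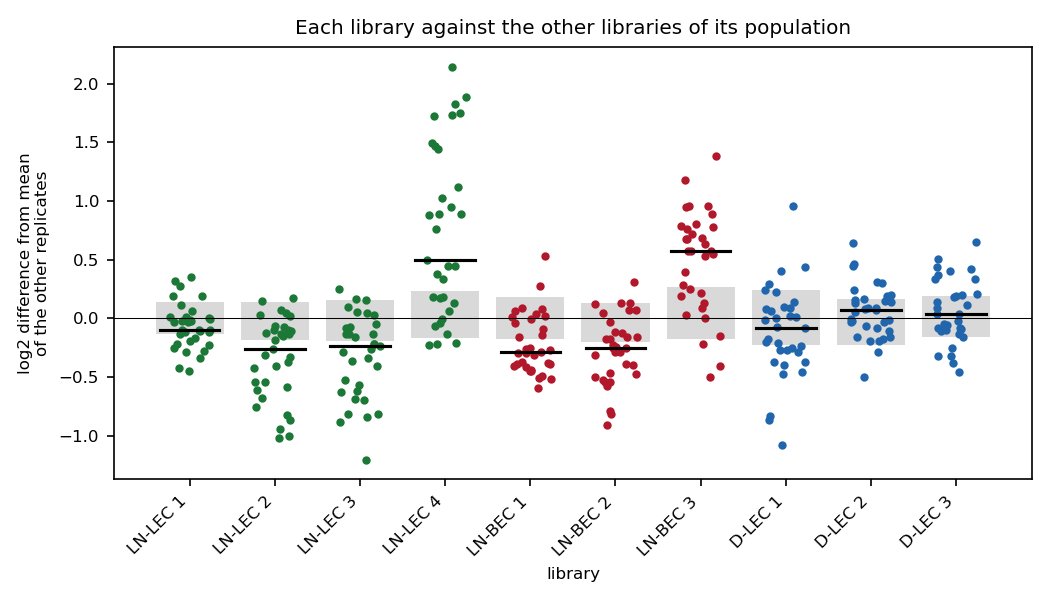
Log2 difference of each library from the mean of the other libraries of its population (y axis) for 33 early response genes (points) in each of 10 libraries (x axis). Black lines are the median of the genes drawn and grey bars the interquartile range over all tested genes. Medians are 0.50 in LN-LEC replicate 4 and 0.57 in LN-BEC replicate 3, and between -0.28 and 0.07 in the other libraries. Fosl1, Egr3, Nr4a3 and Dusp5, which stay under 50 normalized counts in each library, are not drawn.

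The first comparison asked how LEC of LN differ from LEC of a peripheral tissue. Between them 31 of the 37 members passed the test, compared to 45.8% of all tested genes. Of these, 26 were overexpressed by D-LEC over LN-LEC at an adjusted p under 0.05, compared to 21.7% of all tested genes, and 5 were overexpressed by LN-LEC, compared to 24.1%. The 5 were Tnfaip3, Nfkbia, Ier3, Ier5 and Zfp36l1. At least 2-fold differences were found for 22 members toward D-LEC (background 9.37%) and for Tnfaip3 alone toward LN-LEC (background 14%). Libraries of both populations did not overlap for 30 members, compared to 50% of all tested genes, with D-LEC above LN-LEC in 25 (background 24.7%) and LN-LEC above D-LEC in 5 (background 25.3%). The median member was higher in D-LEC by 1.57 on the log2 scale, while the median over all tested genes, as LN-LEC minus D-LEC, was 0.03. Fosl1, Egr3, Nr4a3, Myc, Gadd45a and Gadd45b did not pass the test. Without LN-LEC replicate 4 and LN-BEC replicate 3, 26 members were overexpressed by D-LEC (background 22.9%) and 5 by LN-LEC (background 23.6%).

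The second comparison set both endothelial lineages of the LN against each other, and 21 members passed the test, compared to 38.2% of all tested genes. LN-BEC overexpressed 17 members over LN-LEC (background 18.4%) and LN-LEC overexpressed 4, which were Dusp2, Myc, Tnfaip3 and Maff (background 19.8%). The libraries did not overlap for 21 members, compared to 44.9% of all tested genes. The median member was higher in LN-BEC by 0.77 on the log2 scale. LN-LEC replicate 4 decided several of these calls. Without it, LN-BEC overexpressed 22 members (background 17.8%), among them Fos, Fosb, Jun, Jund, Atf3 and Zfp36, which did not pass with all libraries, whereas Nr4a3 was lost. Without LN-BEC replicate 3 the count was 13 (background 17.3%), and without both libraries it was 20 (background 16.8%), with 4 members overexpressed by LN-LEC in each case.

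Between D-LEC and LN-BEC, which share neither lineage nor tissue, 22 members passed the test, compared to 48.1% of all tested genes. Of these, 16 were overexpressed by D-LEC (background 22.5%) and 6 by LN-BEC (background 25.6%). The 6 were Fosl2, Ier5, Zfp36l1, Nfkbia, Tnfaip3 and Ier3. The libraries did not overlap for 29 members, compared to 56.1% of all tested genes, and the median member was higher in D-LEC by 0.47 on the log2 scale. Without LN-LEC replicate 4 and LN-BEC replicate 3, 23 members were overexpressed by D-LEC (background 23.6%) and 7 by LN-BEC (background 24.5%). The comparisons share libraries, so that counts in 1 of them are not independent of the others. Ordered by their means, 19 of 37 members were highest in D-LEC, intermediate in LN-BEC and lowest in LN-LEC, an order held by 16.6% of all tested genes. Without both libraries the same order held for 20 members and 16.4% of all tested genes.

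**Figure D2:**
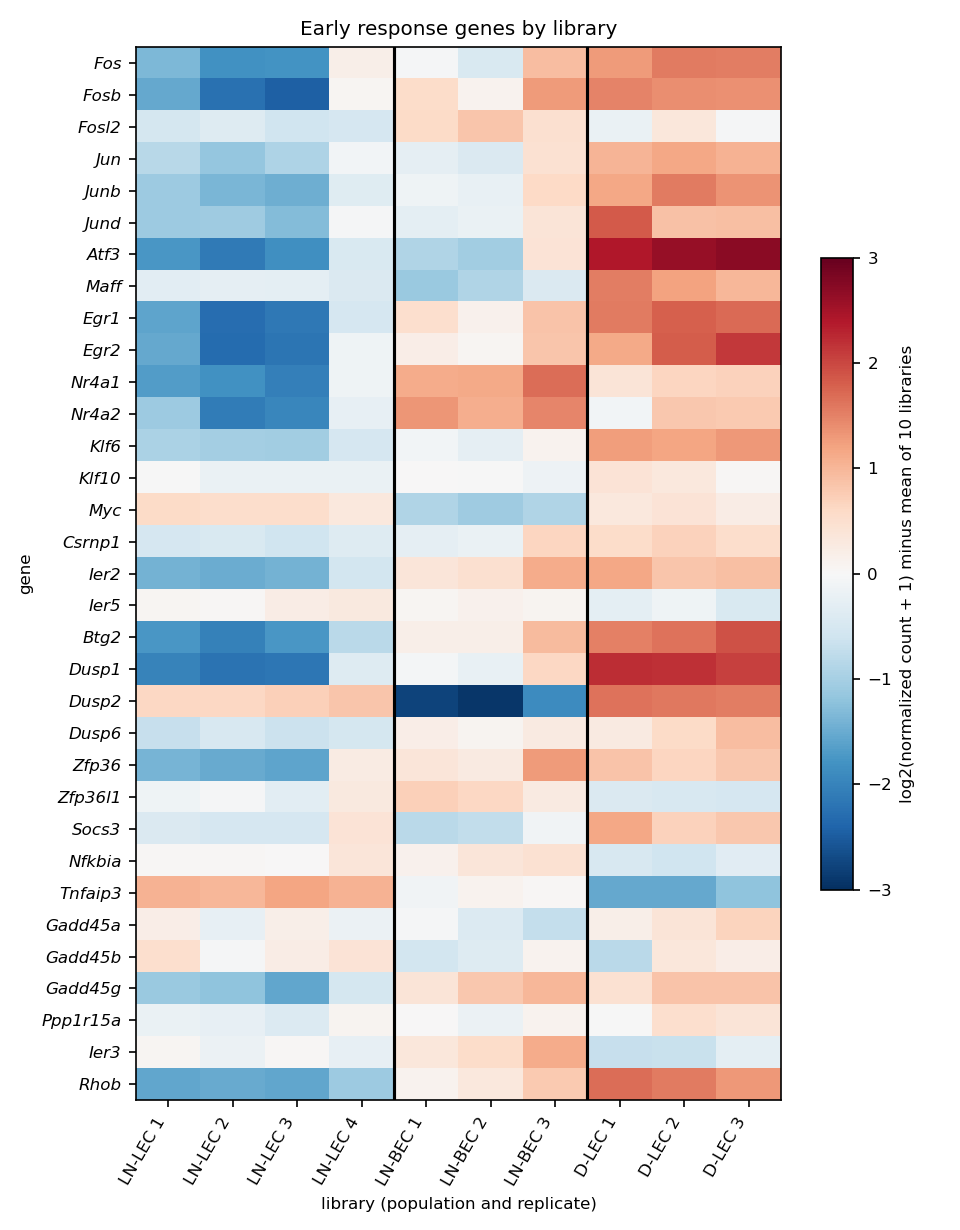
Heat map of 33 early response genes (rows) in 10 libraries (columns, grouped by population), coloured by log2(normalized count + 1) minus the mean of the gene over the 10 libraries. Most rows are blue in LN-LEC replicates 1 to 3, paler in LN-LEC replicate 4 and red in D-LEC, while Tnfaip3, Ier3 and Zfp36l1 are lowest in D-LEC and Dusp2 and Myc in LN-BEC. Fosl1, Egr3, Nr4a3 and Dusp5 are not drawn because each of their libraries is under 50 normalized counts.

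The Fos and Jun proteins dimerize to form AP-1, the leucine zipper factor that carries out much of the early response. Fos (chr12:86814851-86818219, plus strand), the founding member with the CArG box shown above, had normalized counts of 4955, 3576, 3598 and 14208 in LN-LEC, 12238, 9113 and 23871 in LN-BEC, and 30233, 36689.7 and 36081 in D-LEC. All D-LEC libraries lay above all LN libraries, and LN-LEC replicate 4 lay within the range of LN-BEC. Fos was overexpressed by D-LEC over LN-LEC by 2.36 ± 0.58 (SE, adjusted p = 0.0115) on the log2 scale, and without LN-LEC replicate 4 by 3.07 ± 0.37 (SE, adjusted p = 0.000333). Between the LN populations, the log2 difference toward LN-BEC was 1.18 ± 0.57 (SE, adjusted p = 0.149), and without LN-LEC replicate 4 it was 1.88 ± 0.35 (SE, adjusted p = 0.00413). The difference of D-LEC from LN-BEC was 1.18 ± 0.62 (SE, adjusted p = 0.155), and without LN-LEC replicate 4, which enters this test through the common estimate of spread, it was 1.18 ± 0.35 (SE, adjusted p = 0.0248). Fosb (chr7:19888045-19895394, minus strand) had 1815, 1112, 970.2 and 5542 in LN-LEC, 7714, 5645 and 12858 in LN-BEC, and 14735, 13934 and 13568 in D-LEC. Here too no D-LEC library overlapped an LN library. Fosb was overexpressed by D-LEC over LN-LEC by 2.55 ± 0.65 (SE, adjusted p = 0.0138), and without LN-LEC replicate 4 by 3.42 ± 0.37 (SE, adjusted p = 0.000179). Its difference between LN-BEC and LN-LEC was 1.87 ± 0.64 (SE, adjusted p = 0.0535) and became 2.74 ± 0.36 (SE, adjusted p = 0.000617) without LN-LEC replicate 4. With all libraries this difference passed the threshold under DESeq2's Wald test and with another filter on low counts. Within LN-LEC, the coefficient of variation was 77.8% for Fos and 91.3% for Fosb, compared to 10.4% and 4.24% in D-LEC.

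Fosl2, a Fos protein that lacks the strong transactivation domain of Fos and is kept at a steady level in many cells, differed from both in its order. It had 7256, 8056, 6868 and 7350.2 in LN-LEC, 15538, 18754 and 14639 in LN-BEC, and 9071, 13345 and 10278 in D-LEC. LN-BEC libraries were the highest, D-LEC intermediate and LN-LEC the lowest, with no overlap between any pair of populations. LN-BEC overexpressed Fosl2 over LN-LEC by 1.13 ± 0.13 (SE, adjusted p = 8.69e-06) and over D-LEC by 0.59 ± 0.14 (SE, adjusted p = 0.00342). D-LEC overexpressed it over LN-LEC by 0.54 ± 0.13 (SE, adjusted p = 0.00362). Fosl1, another Fos protein, was nearly silent, with 1 count in LN-LEC replicate 1, 2 counts in each of LN-BEC replicates 2 and 3, and 0 counts in all other libraries. It passed the filter on low values through LN-BEC alone, and 67.7% of its exon bases are shared with Ccdc85b, so that these few counts cannot be assigned with certainty.

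Jun (chr4:94715727-94718913, minus strand), the main partner of Fos, had 16458, 13190.0, 15478 and 27683 in LN-LEC, 24356, 21799 and 40276 in LN-BEC, and 59100.2, 65709 and 59860.4 in D-LEC. D-LEC libraries lay above all others, and both LN populations overlapped. D-LEC overexpressed Jun over LN-LEC by 1.74 ± 0.28 (SE, adjusted p = 0.000704) and over LN-BEC by 1.09 ± 0.30 (SE, adjusted p = 0.0147). Between LN-BEC and LN-LEC the difference was 0.65 ± 0.28 (SE, adjusted p = 0.101), compared to 0.92 ± 0.20 (SE, adjusted p = 0.00444) without LN-LEC replicate 4. Junb (chr8:87500808-87502647, minus strand) had 2669, 2187, 2060.2 and 4435 in LN-LEC, 5232, 4863 and 8679 in LN-BEC, and 12792, 16772 and 14455 in D-LEC. The libraries of the 3 populations did not overlap. Junb was overexpressed by D-LEC over LN-LEC by 2.35 ± 0.31 (SE, adjusted p = 0.000257) and over LN-BEC by 1.23 ± 0.33 (SE, adjusted p = 0.0142), and by LN-BEC over LN-LEC by 1.12 ± 0.30 (SE, adjusted p = 0.0178). The last of these calls was lost without LN-BEC replicate 3 (adjusted p = 0.0526). Jund, the Jun protein that is expressed most steadily in resting cells, had 1695, 1719, 1469 and 3524 in LN-LEC, 2955, 3134 and 4725 in LN-BEC, and 12975, 6618 and 6752 in D-LEC. All D-LEC libraries lay above the LN libraries, and D-LEC replicate 1 was far above the other D-LEC libraries. D-LEC overexpressed Jund over LN-LEC by 2.03 ± 0.39 (SE, adjusted p = 0.00288) and over LN-BEC by 1.28 ± 0.42 (SE, adjusted p = 0.0347), but the call over LN-BEC was lost without LN-BEC replicate 1, LN-BEC replicate 2 or D-LEC replicate 1, at an adjusted p of up to 0.118.

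**Figure D3:**
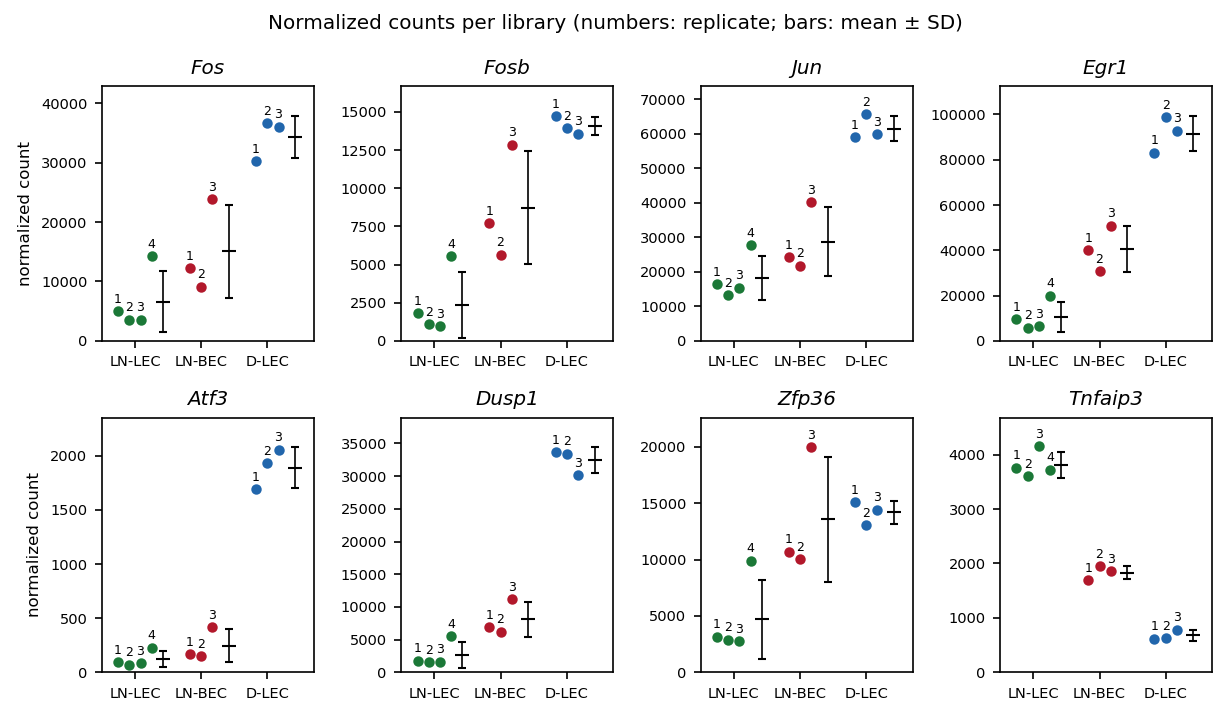
Normalized counts (y axis, linear, from 0) of 8 early response genes in each library of LN-LEC (green), LN-BEC (red) and D-LEC (blue), with replicate numbers beside the points and mean ± SD beside each group (n = 4, 3 and 3). For Fos, Fosb, Jun, Egr1, Atf3 and Dusp1 all D-LEC points lie above all LN points and LN-LEC replicate 4 is the highest LN-LEC point, Zfp36 is highest in LN-BEC replicate 3, and Tnfaip3 has the opposite order.

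Atf3, a bZIP repressor induced by many kinds of cell stress, showed the largest difference between the LEC populations among members called. At chr1:192994176-193007212, minus strand, it had 93.3, 72.4, 87.1 and 229 in LN-LEC, 168, 153 and 420.1 in LN-BEC, and 1689, 1929.7 and 2055 in D-LEC. The lowest D-LEC library was above the highest LN library by several fold. Atf3 was overexpressed by D-LEC over LN-LEC by 3.89 ± 0.49 (SE, adjusted p = 0.000273), or 14.8-fold, and over LN-BEC by 2.94 ± 0.52 (SE, adjusted p = 0.00183). Without LN-BEC replicate 3 the latter was 3.54 ± 0.47 (SE, adjusted p = 0.000393), and without both libraries set apart the former was 4.48 ± 0.14 (SE, adjusted p = 1.25e-11). LN-BEC and LN-LEC overlapped and differed by 0.94 ± 0.49 (SE, adjusted p = 0.178), compared to 1.52 ± 0.41 (SE, adjusted p = 0.0215) without LN-LEC replicate 4. Maff, a small Maf protein that binds antioxidant response elements as a dimer, had 334, 345, 341 and 311 in LN-LEC, 193, 225 and 311 in LN-BEC, and 1216, 964 and 831 in D-LEC. D-LEC lay above both LN populations, and LN-BEC replicate 3 was level with LN-LEC replicate 4. D-LEC overexpressed Maff over LN-LEC by 1.57 ± 0.16 (SE, adjusted p = 1.79e-06) and over LN-BEC by 2.04 ± 0.17 (SE, adjusted p = 3.13e-07). LN-LEC overexpressed it over LN-BEC by 0.47 ± 0.16 (SE, adjusted p = 0.0344), a call that was lost without any 1 of LN-LEC replicates 1 to 3 or LN-BEC replicates 1 and 2 (adjusted p up to 0.153).

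Egr1, a zinc finger factor and classic SRF target, was the most abundant member per kb of exon in D-LEC and LN-BEC. It had 9505, 5854, 6398 and 19958 in LN-LEC, 39955, 30939 and 50967 in LN-BEC, and 83065, 98693 and 92916 in D-LEC. The populations did not overlap, with D-LEC highest and LN-LEC lowest. Egr1 was overexpressed by D-LEC over LN-LEC by 3.11 ± 0.44 (SE, adjusted p = 0.000517) and by LN-BEC over LN-LEC by 1.94 ± 0.43 (SE, adjusted p = 0.00691). The difference of D-LEC from LN-BEC, 1.17 ± 0.46 (SE, adjusted p = 0.0676), did not pass the test, whereas it was 1.17 ± 0.21 (SE, adjusted p = 0.00117) without LN-LEC replicate 4. It also passed under DESeq2's Wald test, with only both populations fitted and without LN-LEC replicate 2. Egr2 (chr10:67000617-67004936, plus strand), with a pair of CArG boxes, was measured at lower levels of 63.5, 36.8, 39.6 and 170.4 in LN-LEC, 212, 192 and 332 in LN-BEC, and 405, 650.3 and 805 in D-LEC. The order of the populations was that of Egr1, again without overlap. D-LEC overexpressed Egr2 over LN-LEC by 2.91 ± 0.53 (SE, adjusted p = 0.00206), and without LN-LEC replicate 4 by 3.72 ± 0.34 (SE, adjusted p = 7.51e-06). LN-BEC overexpressed it over LN-LEC by 1.57 ± 0.53 (SE, adjusted p = 0.0477), but this call was lost without any 1 library other than LN-LEC replicate 4 (adjusted p up to 0.138). It was also lost without the filter on low counts, with predicted genes kept and with only both populations fitted. Without LN-LEC replicate 4 the difference was 2.38 ± 0.34 (SE, adjusted p = 0.000242). The difference between D-LEC and LN-BEC was 1.34 ± 0.55 (SE, adjusted p = 0.0745), and 1.34 ± 0.29 (SE, adjusted p = 0.0031) without LN-LEC replicate 4. Egr3 had 1 count in LN-LEC replicate 1, 3 counts in LN-BEC replicate 1, 1 count in LN-BEC replicate 3 and 0 counts elsewhere, at the limit of what these depths can show. Like Fosl1, it passed the filter on low values through LN-BEC alone.

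The Nr4a receptors are nuclear receptors without a known physiological ligand that are induced within minutes by calcium, cAMP and shear. Unlike for Fos, Jun and Egr1, the highest means were those of LN-BEC. Nr4a1 (chr15:101097277-101105225, plus strand) had 242, 218, 187 and 710.4 in LN-LEC, 1661, 1700.2 and 2451 in LN-BEC, and 1013, 1197 and 1251 in D-LEC. LN-BEC lay above D-LEC and D-LEC above LN-LEC, without overlap. LN-BEC overexpressed Nr4a1 over LN-LEC by 2.46 ± 0.46 (SE, adjusted p = 0.00335) and D-LEC over LN-LEC by 1.71 ± 0.46 (SE, adjusted p = 0.0168), and the latter call was lost without D-LEC replicate 3 (adjusted p = 0.0509). Without LN-LEC replicate 4 these differences were 3.15 ± 0.17 (SE, adjusted p = 2.05e-08) and 2.40 ± 0.17 (SE, adjusted p = 1.7e-07). Nr4a2 (chr2:56959637-56976414, minus strand) had 106, 52, 57.7 and 191 in LN-LEC, 573, 481 and 625 in LN-BEC, and 216, 396 and 392 in D-LEC. It was overexpressed by LN-BEC over LN-LEC by 2.40 ± 0.43 (SE, adjusted p = 0.00164) and by D-LEC over LN-LEC by 1.66 ± 0.43 (SE, adjusted p = 0.0111). D-LEC and LN-BEC differed toward LN-BEC by 0.75 ± 0.48 (SE, adjusted p = 0.239) for Nr4a1 and 0.74 ± 0.44 (SE, adjusted p = 0.199) for Nr4a2, neither past the threshold. Without LN-LEC replicate 4 both differences passed it, at adjusted p of 0.00141 and 0.0436, whereas without both libraries set apart Nr4a1 passed it (adjusted p = 0.00297) and Nr4a2 did not (adjusted p = 0.103). Nr4a3 was detected at 0 to 3 counts in LN-LEC, 7 to 20 in LN-BEC and 0 to 4 in D-LEC. LN-BEC overexpressed it over LN-LEC by 2.60 ± 0.89 (SE, adjusted p = 0.0331), which was lost without LN-LEC replicate 1, 3 or 4 or LN-BEC replicate 1 (adjusted p up to 0.137).

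Among other nuclear factors, Klf6 (chr13:5860735-5869639, plus strand), a Krüppel-like factor induced in injured endothelium, was measured at 7033, 6739.7, 6632 and 9619.6 in LN-LEC, 12794, 11239 and 14608 in LN-BEC, and 32446, 30605 and 33534 in D-LEC. The 3 populations did not overlap. Klf6 was overexpressed by D-LEC over LN-LEC by 2.08 ± 0.13 (SE, adjusted p = 2.15e-08) and over LN-BEC by 1.32 ± 0.14 (SE, adjusted p = 3.9e-06), and by LN-BEC over LN-LEC by 0.76 ± 0.13 (SE, adjusted p = 0.000331). Btg2, an antiproliferative cofactor of mRNA deadenylation with the CRE shown above, had 1202, 993, 1204 and 2301 in LN-LEC, 4571, 4551 and 7877 in LN-BEC, and 11641, 12578 and 15231 in D-LEC. It followed the same order without overlap. D-LEC overexpressed Btg2 over LN-LEC by 3.18 ± 0.33 (SE, adjusted p = 6.07e-05), or 9.07-fold, and LN-BEC over LN-LEC by 1.97 ± 0.32 (SE, adjusted p = 0.00116). The call of D-LEC over LN-BEC, 1.21 ± 0.34 (SE, adjusted p = 0.0185), was lost without LN-BEC replicate 1, LN-BEC replicate 2 or D-LEC replicate 3 (adjusted p up to 0.0609). Ier2, a nuclear regulator of unclear mechanism with a CRE near its start, had 888, 835, 885 and 1601 in LN-LEC, 3029.7, 3309 and 5101 in LN-BEC, and 5274, 4213 and 4391 in D-LEC. Both LN-BEC and D-LEC lay above LN-LEC and overlapped each other. Ier2 was overexpressed over LN-LEC by D-LEC, by 2.11 ± 0.27 (SE, adjusted p = 0.000151), and by LN-BEC, by 1.83 ± 0.26 (SE, adjusted p = 0.000412).

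Csrnp1, a nuclear protein first described as induced by AXIN1, had 312, 322, 296 and 340.1 in LN-LEC, 370.3, 388 and 703 in LN-BEC, and 651, 724 and 645 in D-LEC. It was overexpressed by D-LEC over LN-LEC by 1.06 ± 0.19 (SE, adjusted p = 0.00046). The call of LN-BEC over LN-LEC, 0.59 ± 0.19 (SE, adjusted p = 0.0243), rested largely on LN-BEC replicate 3, without which the difference was 0.25 ± 0.12 (SE, adjusted p = 0.118). It was also lost without LN-LEC replicate 1, 2 or 3. Klf10, a TGF-β-inducible Krüppel-like factor, was the most abundant member per kb of exon in LN-LEC, at 8233 ± 554 normalized counts per kb (SD, n = 4). Its levels were close together, with means of 33364 ± 4252 in D-LEC (SD, n = 3), 26985 ± 1615 in LN-BEC (SD, n = 3) and 25069.6 ± 1688 in LN-LEC (SD, n = 4). D-LEC overexpressed Klf10 over LN-LEC by 0.39 ± 0.10 (SE, adjusted p = 0.00573) and over LN-BEC by 0.30 ± 0.11 (SE, adjusted p = 0.0341), and the second call was lost in 7 of 17 alternative fits, among them those without LN-BEC replicate 1, 2 or 3 or D-LEC replicate 1 or 2 (adjusted p up to 0.116).

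Myc, the bHLH factor of growth control, did not follow the early factors. It had 1067, 1032, 1032 and 905 in LN-LEC, 386, 342 and 387 in LN-BEC, and 897, 954 and 843 in D-LEC. Both LEC populations lay above LN-BEC and overlapped each other. Myc was overexpressed over LN-BEC by LN-LEC, by 1.46 ± 0.10 (SE, adjusted p = 4.76e-08), and by D-LEC, by 1.27 ± 0.10 (SE, adjusted p = 2e-07), and the LEC populations differed by 0.19 ± 0.09 (SE, adjusted p = 0.119) toward LN-LEC, which did not pass the test. Ier5, a regulator of HSF1, was lower in D-LEC than in both LN populations. It had 2605, 2561, 2919.6 and 3038 in LN-LEC, 2602, 2709 and 2654 in LN-BEC, and 2032, 2266 and 1801 in D-LEC. LN-LEC overexpressed it over D-LEC by 0.47 ± 0.10 (SE, adjusted p = 0.00119) and LN-BEC over D-LEC by 0.39 ± 0.10 (SE, adjusted p = 0.0064).

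The Dusp proteins dephosphorylate MAP kinases and are induced by the kinases they switch off. Dusp1 (chr17:26642536-26645417, minus strand), the nuclear phosphatase of p38, JNK and ERK, has the CRE shown above. It had 1809.5, 1583, 1627 and 5569.8 in LN-LEC, 6958, 6247 and 11183 in LN-BEC, and 33641, 33434 and 30098 in D-LEC. D-LEC libraries exceeded LN-BEC libraries, which exceeded LN-LEC libraries. Dusp1 was overexpressed by D-LEC over LN-LEC by 3.59 ± 0.51 (SE, adjusted p = 0.000674), and without LN-LEC replicate 4 by 4.25 ± 0.21 (SE, adjusted p = 3.76e-08). It was overexpressed by D-LEC over LN-BEC by 1.99 ± 0.54 (SE, adjusted p = 0.017), a call lost without LN-BEC replicate 1 or 2 (adjusted p up to 0.0601). LN-BEC overexpressed it over LN-LEC by 1.60 ± 0.49 (SE, adjusted p = 0.0339), which was lost without any 1 library other than LN-LEC replicate 4 (adjusted p up to 0.105) but was 2.27 ± 0.19 (SE, adjusted p = 3.76e-06) without that library. The call of LN-BEC over LN-LEC was also lost with only both populations fitted.

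Dusp2 (chr2:127161895-127164113, plus strand), a nuclear phosphatase best known from activated leukocytes, separated the lineages. It had 1274, 1278, 1366 and 1480.5 in LN-LEC, 119.9, 109 and 223 in LN-BEC, and 2577, 2475 and 2389 in D-LEC. D-LEC was the highest and LN-BEC by far the lowest, without overlap. LN-LEC overexpressed Dusp2 over LN-BEC by 3.19 ± 0.21 (SE, adjusted p = 1.52e-07), or 9.15-fold, and D-LEC over LN-BEC by 4.05 ± 0.22 (SE, adjusted p = 2.11e-08), or 16.5-fold. The LEC populations differed by 0.86 ± 0.17 (SE, adjusted p = 0.00171) toward D-LEC. LN-BEC replicate 3, which had the highest sum of lymphatic markers among LN-BEC, also had the highest Dusp2 among them, and the part of these markers in that level was not tested. Dusp6, the cytoplasmic phosphatase of ERK, had 6091, 7061, 6259.8 and 6747 in LN-LEC, 11264, 10381 and 11864 in LN-BEC, and 11902, 14566 and 18684 in D-LEC. D-LEC overexpressed it over LN-LEC by 1.18 ± 0.13 (SE, adjusted p = 4.34e-06) and LN-BEC over LN-LEC by 0.76 ± 0.13 (SE, adjusted p = 0.00029). The call of D-LEC over LN-BEC, 0.43 ± 0.14 (SE, adjusted p = 0.0205), was lost without LN-BEC replicate 2 or D-LEC replicate 3 (adjusted p up to 0.115). Dusp5, a nuclear phosphatase of ERK with adjacent CArG boxes, was measured at 0 to 4 counts in each LN library and at 9, 33 and 43 counts in D-LEC. It was overexpressed by D-LEC over LN-LEC by 3.71 ± 0.71 (SE, adjusted p = 0.000671) and over LN-BEC by 3.77 ± 0.78 (SE, adjusted p = 0.00123).

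Zfp36 (tristetraprolin) binds AU-rich elements and triggers the decay of the mRNAs that carry them, its own among them. At chr7:29161803-29164247, minus strand, it had 3158, 2907, 2792 and 9906 in LN-LEC, 10693, 10054 and 19975 in LN-BEC, and 15088, 13039 and 14427 in D-LEC. LN-LEC replicates 1 to 3 were close together and LN-LEC replicate 4 was just under LN-BEC, while LN-BEC replicate 3 was the highest of all libraries. D-LEC overexpressed Zfp36 over LN-LEC by 1.57 ± 0.51 (SE, adjusted p = 0.0375), a call that was lost without any 1 library other than LN-LEC replicate 4 and LN-BEC replicate 3 (adjusted p up to 0.0914). LN-BEC differed from LN-LEC by 1.51 ± 0.51 (SE, adjusted p = 0.0501), which missed the threshold. With all libraries this difference passed it under DESeq2's Wald test, with DESeq2 size factors and with another filter on low counts. The call of D-LEC over LN-LEC was also lost with only both populations fitted. Without both of the libraries set apart, the difference was 2.26 ± 0.09 (SE, adjusted p = 1.82e-10) for D-LEC over LN-LEC and 1.79 ± 0.10 (SE, adjusted p = 5.08e-09) for LN-BEC over LN-LEC. Zfp36l1, its relative with the same RNA-binding fold, had 14816, 15818, 12946 and 19676 in LN-LEC, 26372, 24671 and 19285 in LN-BEC, and 11911, 11537 and 11329 in D-LEC. D-LEC was the lowest. LN-LEC overexpressed Zfp36l1 over D-LEC by 0.47 ± 0.14 (SE, adjusted p = 0.0127), and LN-BEC overexpressed it over D-LEC by 1.02 ± 0.15 (SE, adjusted p = 5.9e-05) and over LN-LEC by 0.55 ± 0.14 (SE, adjusted p = 0.00493).

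The inhibitors of cytokine and NF-κB signaling were split. Tnfaip3 (A20, chr10:18720717-18735216, minus strand), a ubiquitin-editing enzyme that NF-κB induces and that in turn restrains it, had 3760.4, 3609, 4155 and 3725 in LN-LEC, 1699, 1946 and 1855 in LN-BEC, and 622, 625 and 787 in D-LEC. The populations did not overlap, with LN-LEC the highest and D-LEC the lowest, and LN-LEC replicate 4 lay within the range of the other LN-LEC libraries. LN-LEC overexpressed Tnfaip3 over D-LEC by 2.51 ± 0.11 (SE, adjusted p = 5.17e-10), or 5.69-fold, and over LN-BEC by 1.07 ± 0.10 (SE, adjusted p = 1.43e-06). LN-BEC overexpressed it over D-LEC by 1.44 ± 0.11 (SE, adjusted p = 1.12e-07). Nfkbia, the inhibitor IκBα and likewise an NF-κB target, had 11477, 11441, 11299.5 and 14421 in LN-LEC, 12149, 14375 and 15387 in LN-BEC, and 7980.4, 7351 and 8829 in D-LEC. D-LEC was again below all LN libraries. Nfkbia was overexpressed over D-LEC by LN-LEC, by 0.62 ± 0.12 (SE, adjusted p = 0.000588), and by LN-BEC, by 0.80 ± 0.12 (SE, adjusted p = 9.9e-05), and the LN populations differed by 0.18 ± 0.11 (SE, adjusted p = 0.227) toward LN-BEC, which did not pass. Both have a match to the NF-κB site in the promoter window and TTATTTATT in the 3′ untranslated region, but neither feature set this pair apart. The NF-κB match was also present in Socs3, Fos, Fosb, Fosl2, Nr4a2, Klf10, Zfp36l1 and Ier3. TTATTTATT was also present in Fos, Fosl2, Maff, Csrnp1, Dusp1, Zfp36, Zfp36l1 and Ppp1r15a. In its levels Socs3, the inhibitor of gp130 and JAK signaling, went the other way. It had 796, 757, 753 and 1423 in LN-LEC, 605, 635 and 993 in LN-BEC, and 2384, 1732 and 1881 in D-LEC. D-LEC was above all LN libraries, and overexpressed Socs3 over LN-LEC by 1.07 ± 0.27 (SE, adjusted p = 0.00892) and over LN-BEC by 1.42 ± 0.29 (SE, adjusted p = 0.00302).

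The Gadd45 proteins bind stress kinases and cell cycle proteins, and each of the 3 behaved differently. Gadd45g, with a CArG box, had 244, 227, 176 and 363 in LN-LEC, 688, 923 and 1046 in LN-BEC, and 724, 955 and 955 in D-LEC. It was overexpressed over LN-LEC by D-LEC, by 1.76 ± 0.23 (SE, adjusted p = 7.33e-05), and by LN-BEC, by 1.78 ± 0.23 (SE, adjusted p = 7.65e-05), whereas D-LEC and LN-BEC overlapped and differed by -0.01 ± 0.24 (SE, adjusted p = 0.97). Gadd45a, a p53 target, had 723, 532, 713 and 556 in LN-LEC, 615, 475 and 381 in LN-BEC, and 708, 828 and 1011 in D-LEC. D-LEC overexpressed Gadd45a over LN-BEC by 0.79 ± 0.19 (SE, adjusted p = 0.00431), while the difference of D-LEC from LN-LEC was 0.41 ± 0.18 (SE, adjusted p = 0.0747), and 19.4% of its exon bases are shared with E230016M11Rik. Gadd45b, which TGF-β and NF-κB induce, averaged 357 ± 134 in D-LEC (SD, n = 3), 302 ± 74.9 in LN-BEC (SD, n = 3) and 437 ± 71.4 in LN-LEC (SD, n = 4), and passed none of the tests (adjusted p of 0.37, 0.127 and 0.493). Ppp1r15a (GADD34), the phosphatase subunit that restores translation after stress, had 1519, 1476, 1318 and 1865 in LN-LEC, 1753, 1554 and 1880.1 in LN-BEC, and 1731, 2468 and 2276 in D-LEC. D-LEC overexpressed it over LN-LEC by 0.46 ± 0.14 (SE, adjusted p = 0.0144), although D-LEC replicate 1 overlapped LN-LEC, and the call was lost without D-LEC replicate 2 or 3 (adjusted p up to 0.0671).

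Rhob (chr12:8504565-8506791, minus strand), a small GTPase of endosomes and stress fibers that is itself an early gene, had 1434, 1471, 1443 and 1979.6 in LN-LEC, 4518, 5266 and 7246 in LN-BEC, and 13526, 12505 and 10404 in D-LEC. The populations were separate and in the order of Egr1. Rhob was overexpressed by D-LEC over LN-LEC by 2.92 ± 0.17 (SE, adjusted p = 5.45e-08), or 7.55-fold, by D-LEC over LN-BEC by 1.09 ± 0.18 (SE, adjusted p = 0.000348), and by LN-BEC over LN-LEC by 1.83 ± 0.17 (SE, adjusted p = 3.22e-06). Ier3, a stress-inducible survival protein that ERK phosphorylates, had 1760.3, 1488, 1729 and 1426 in LN-LEC, 2126, 2478 and 3673 in LN-BEC, and 1051, 1074 and 1375 in D-LEC. LN-BEC was the highest and D-LEC the lowest. LN-BEC overexpressed Ier3 over LN-LEC by 0.77 ± 0.17 (SE, adjusted p = 0.0037) and over D-LEC by 1.24 ± 0.19 (SE, adjusted p = 0.000181). The call of LN-LEC over D-LEC, 0.47 ± 0.18 (SE, adjusted p = 0.0463), was lost without LN-LEC replicate 1, 2 or 3 or D-LEC replicate 1 or 2 (adjusted p up to 0.164). It was also lost when the edgeR fit used DESeq2 size factors.

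**Figure D4:**
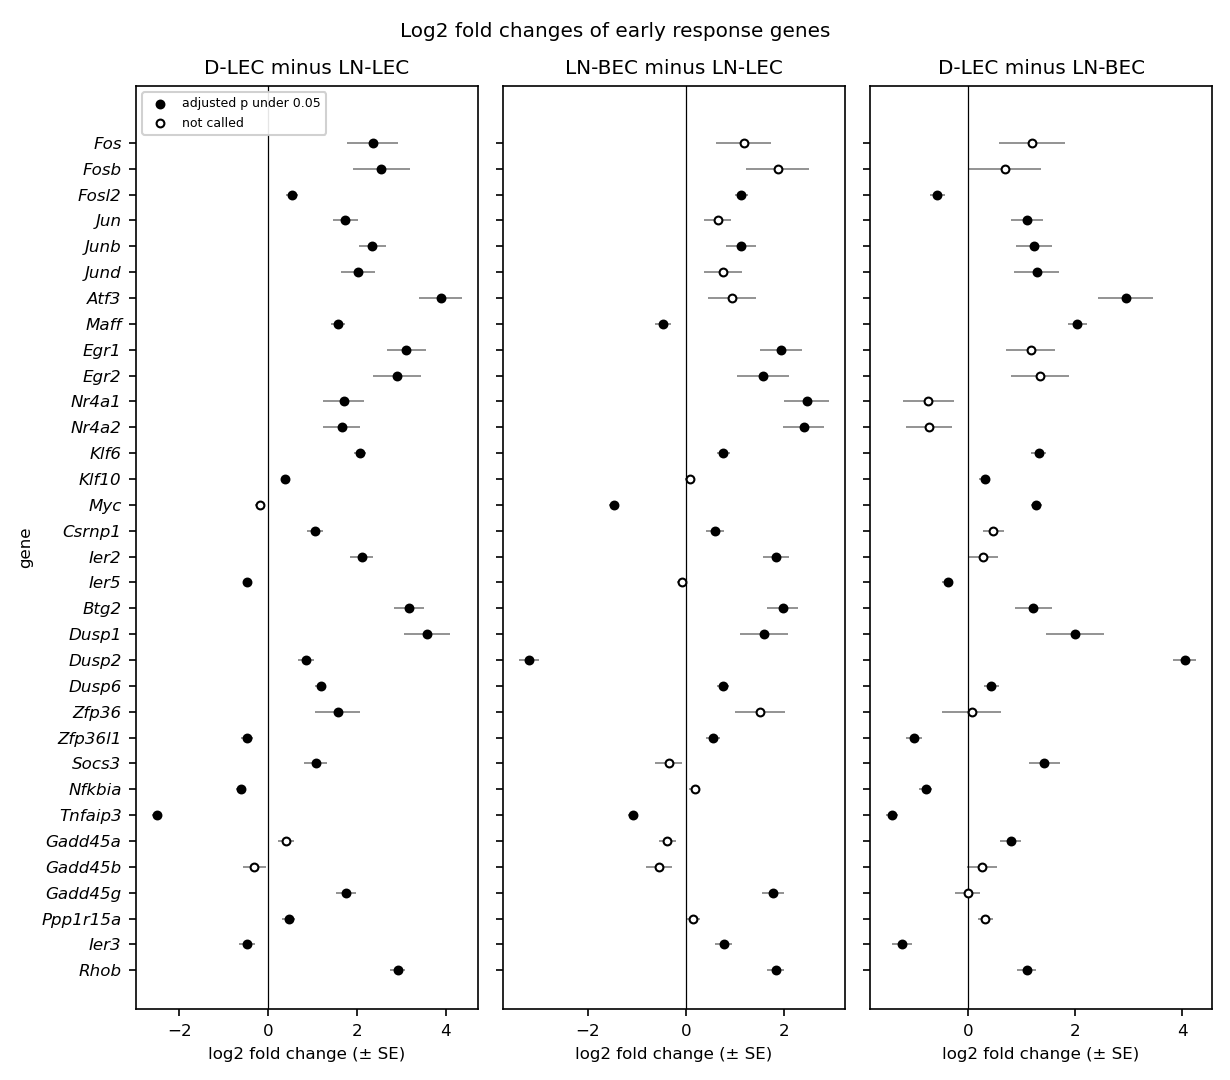
Log2 fold changes ± SE (x axes) from the edgeR fit for 33 early response genes (y axis) in 3 comparisons, with filled points for an adjusted p under 0.05 and open points otherwise. In the left panel most points lie to the right, toward D-LEC, and Tnfaip3 lies at -2.51; in the middle panel Dusp2 lies at -3.19, toward LN-LEC; and in the right panel Dusp2 lies at 4.05, toward D-LEC.

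Between genes, levels can be compared only per kb of exon. In D-LEC the most abundant members were Egr1 with 29804 ± 2572, Jun with 19315 ± 1135, Dusp1 with 16679 ± 1024 and Fos with 16404 ± 1703 normalized counts per kb (SD, n = 3), and Dusp1 and Fos differed by less than their spread. In LN-BEC they were Egr1 with 13223 ± 3265, Jun with 9039.9 ± 3141, Klf10 with 8862 ± 530.3 and Nfkbia with 8848 ± 1049 (SD, n = 3), and the SD of each overlapped that of the next. In LN-LEC, Klf10 was followed by Nfkbia with 7701 ± 956, Jun with 5711 ± 2029 and Zfp36l1 with 5299.5 ± 950.5 (SD, n = 4), and here too the SD of each overlapped that of the next. Egr1 ranked behind these in LN-LEC with 3395 ± 2133 (SD, n = 4).

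Other genes of these pathways were described from lists written with earlier results of the series known. Of 38 other early response genes, 25 were overexpressed by D-LEC over LN-LEC (background 21.7%) and 3 by LN-LEC over D-LEC (background 24.1%). Id1, an inhibitor of bHLH factors and BMP target, had 5410.3 ± 724 in D-LEC (SD, n = 3), 14116 ± 2362 in LN-BEC (SD, n = 3) and 221 ± 57.9 in LN-LEC (SD, n = 4). Its log2 difference of LN-LEC from D-LEC was -4.58 ± 0.21 (SE, adjusted p = 1.07e-08), and that of Spry4, an inhibitor of ERK signaling, was -3.18 ± 0.17 (SE, adjusted p = 3.14e-09). Toward LN-LEC, the largest differences from D-LEC were those of the NF-κB regulators Nfkbid, at 3.80 ± 0.31 (SE, adjusted p = 2.68e-07), and Bcl3, at 2.22 ± 0.13 (SE, adjusted p = 1.07e-08). Between LN-LEC and LN-BEC, 21 of the 38 were overexpressed by LN-BEC (background 18.4%), Id1 and the neuronal early gene Arc with the largest differences, and 8 by LN-LEC (background 19.8%), Dusp14 and the EGFR inhibitor Errfi1 with the largest. Arc had 90.7 ± 52.8 in LN-BEC (SD, n = 3) and 4.6 ± 3.96 in LN-LEC (SD, n = 4), and Errfi1 had 3606 ± 1681 in LN-BEC (SD, n = 3) and 19319 ± 3796 in LN-LEC (SD, n = 4). Between D-LEC and LN-BEC, 15 were overexpressed by D-LEC (background 22.5%), led by Cebpb, a bZIP factor of the acute phase, and 11 by LN-BEC (background 25.6%).

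Of 14 heat shock genes, 6 were overexpressed by D-LEC over LN-LEC (background 21.7%) and 3 by LN-LEC over D-LEC (background 24.1%), the latter a share near the background. The inducible chaperones Hspa1a and Hspa1b differed most toward D-LEC. As LN-LEC minus D-LEC, their log2 differences were -2.56 ± 0.36 (SE, adjusted p = 0.000129) and -2.28 ± 0.23 (SE, adjusted p = 7.93e-06). Toward LN-LEC the largest was that of Hspa5 (BiP), the chaperone of the endoplasmic reticulum, at 0.96 ± 0.09 (SE, adjusted p = 9.01e-07). LN-BEC overexpressed 3 heat shock genes over LN-LEC (background 18.4%), among them Hspb1 with 5265 ± 952 (SD, n = 3) compared to 788 ± 209 (SD, n = 4), and LN-LEC overexpressed 3 (background 19.8%), both near the background. Against the same backgrounds of 21.7% and 24.1%, 4 of 11 genes listed for the integrated and other stress responses were overexpressed by D-LEC over LN-LEC. The mTORC1 inhibitor Ddit4 led at -2.66 ± 0.36 (SE, adjusted p = 0.000313) as LN-LEC minus D-LEC. LN-LEC overexpressed 3, led by the metallothioneins Mt2 and Mt1, which count among the other stress genes. Their differences were 3.08 ± 0.56 (SE, adjusted p = 0.00246) and 2.94 ± 0.61 (SE, adjusted p = 0.00513). Of 11 p53 targets, 3 were overexpressed in each direction, which is near those backgrounds. Pmaip1 (Noxa) led toward D-LEC, with 285 ± 87.5 in D-LEC (SD, n = 3) compared to 14.6 ± 6.68 in LN-LEC (SD, n = 4). Phlda3, at 0.80 ± 0.17 (SE, adjusted p = 0.00155), and Zmat3, at 0.58 ± 0.15 (SE, adjusted p = 0.00717), led toward LN-LEC.

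The regulators upstream of the early genes included SRF and its cofactors, CREB and the MAP kinases. Of 18, 3 were overexpressed by D-LEC over LN-LEC, 2 by LN-LEC and 13 were not called, while 45.8% of all tested genes were called in either direction. The 3 included Crem, which encodes the inducible cAMP repressor ICER, with 2226 ± 294 in D-LEC (SD, n = 3) and 689 ± 93.3 in LN-LEC (SD, n = 4), and Elk3, an SRF cofactor, with 34316 ± 1664 in D-LEC (SD, n = 3) and 15534 ± 3513 in LN-LEC (SD, n = 4). Between LN-LEC and LN-BEC 3 were overexpressed in each direction (38.2% of all tested genes were called in either), and Mkl2, another SRF cofactor, was higher in LN-BEC with 11942 ± 1124 (SD, n = 3) compared to 2242 ± 133 (SD, n = 4). Of 17 acute inflammatory genes of endothelium, LN-LEC overexpressed 7 over D-LEC (background 24.1%) and D-LEC overexpressed 1 over LN-LEC (background 21.7%). Vcam1, the adhesion molecule for VLA-4, had 11412 ± 1030.4 in LN-LEC (SD, n = 4) and 80.3 ± 30.8 in D-LEC (SD, n = 3), and the neutrophil chemokine Cxcl1 had 1722 ± 672 in LN-LEC (SD, n = 4) and 137 ± 49.8 in D-LEC (SD, n = 3). The 1 gene toward D-LEC was Il6, with 32.1 ± 1.37 in D-LEC (SD, n = 3), 79 ± 18.1 in LN-BEC (SD, n = 3) and 2.03 ± 0.974 in LN-LEC (SD, n = 4). Of the same 17, LN-LEC overexpressed 8 over LN-BEC (background 19.8%) and LN-BEC 3 over LN-LEC (background 18.4%). LN-BEC also overexpressed 9 of them over D-LEC (background 25.6%), and D-LEC 4 over LN-BEC (background 22.5%).

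Markers of skeletal muscle, mesothelium, and smooth muscle and pericytes moved with the tissue of origin, while those of leukocytes, fibroblasts and red blood cells did not. The summed normalized count of 8 skeletal muscle genes was 949.8 to 1352 in D-LEC, with all 8 genes detected, and 2.54 to 16.6 in the LN libraries, with Myh4 and Myh7 at 0 in LN-BEC. That of 4 mesothelial genes was 488 to 1537 in D-LEC and 9.51 to 92.8 in the LN libraries. Conversely, 6 smooth muscle and pericyte genes summed to 161 to 312 in D-LEC and 3088 to 6637 in the LN libraries. The 15 leukocyte genes summed to 1742 to 2009.8 in LN-BEC, 784 to 1029.7 in LN-LEC and 536 to 928 in D-LEC. Sums of 6 fibroblast genes overlapped, at 2498 to 7482 in D-LEC, 4059 to 7360 in LN-LEC and 2349.7 to 7934 in LN-BEC, and of 5 red blood cell genes Alas2 alone was detected, with the 4 hemoglobin genes at 0. Muscle and mesothelial markers were high in the libraries in which Fos, Egr1, Atf3 and Dusp1 were high, and pericyte markers were low there. Their part in the levels of the early genes was not tested.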

How the data were processed

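RNA from 10 libraries of sorted mouse endothelial cells was amplified by the Ovation V2 kit and read as 100-base pairs. The authors trimmed reads with Fastx-trimmer, aligned them with STAR to mm9 and deposited raw fragment counts per gene symbol from featureCounts 1.4.4, made without regard to strand, so that overlapping genes on opposite strands share fragments. The deposited Length column (exon bases) was used for values per kb. A gene was tested if its normalized count averaged 1 or more in any population, leaving out 3803 symbols of predicted genes and clones. This kept 15330 genes and all 37 members. All 10 libraries were fitted with 1 mean per population in edgeR 4.0.16 (TMM, quasi-likelihood F test, R 4.3.3), with Benjamini-Hochberg adjustment over all tested genes and a threshold of 0.05. The SE of a log2 difference was derived from that test, as its absolute value divided by the square root of the F statistic. Levels were counts divided by DESeq2 1.42.0 size factors. The fitting code was tested on simulated data. Alternatives were DESeq2's Wald test, other size factors and filters, a fit of only the compared populations, and leaving out libraries. Every member is named. Genes named from the lists of other pathway genes were among the 2 called genes with the largest difference in each direction of a comparison. Not all genes that met this rule are named. The members are defined by name, without a threshold on measured values, but members and lists were chosen with earlier results of these data known. Replicates were numbered in accession order. Tables and plots were made with Python 3.11.15, pandas 2.3.3 and matplotlib 3.10.9.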

Additional observations from a re-analysis of the deposited data

Results flagged for a closer look

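In LN-LEC, the only population with 4 libraries, 15 members had 1 library separated from the other 3 by a share of the whole range above Dixon's 95% critical value. These were 40.5% of members, compared to 9.11% of all tested genes. The critical value stands for about 1 in 20 only among independent, normally distributed values. Members are measured in the same libraries, so that their flags are not independent of each other. In 12 of them the separate library was LN-LEC replicate 4. Among transcription factors, its normalized count was 14210 for Fos, 3524 for Jund, 229.5 for Atf3, 710.4 for Nr4a1 and 9620 for Klf6. It was 1601 for Ier2 and 2301 for Btg2. Among genes that restrain signaling, it was 5570 for Dusp1, 9906 for Zfp36, 1423 for Socs3 and 14420 for Nfkbia, and for the GTPase gene Rhob it was 1980. In the other 3 the separate library was LN-LEC replicate 1, with 27600 for Klf10 and 1.296 for each of Fosl1 and Egr3, the last 2 of which rest on 1 count.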

How the results depend on the processing

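Counts of called members stayed within 1.5 times their values under 17 alternatives, at 28 to 32 for LN-LEC versus D-LEC, 16 to 26 for LN-LEC versus LN-BEC and 17 to 30 for D-LEC versus LN-BEC. Of 74 called differences, 59 passed in all alternatives, 15 missed the threshold in some and 0 changed sign. Of 37 that were not called, 20 passed in some alternatives and 4 changed sign, and the cause was not tested. Nr4a3 (LN-LEC minus D-LEC) ran from -0.87 to 0.67 when single libraries were left out, at 0.14 without LN-LEC replicate 3 and 0.67 without D-LEC replicate 2. Dusp5 (LN-LEC minus LN-BEC) ran from -0.28 to 0.40, at -0.28 without LN-LEC replicate 3, -0.17 without LN-LEC replicate 4, -0.27 without LN-BEC replicate 1 and was -0.077 without LN-LEC replicate 4 and LN-BEC replicate 3 together. Zfp36 (D-LEC minus LN-BEC) ran from -0.11 to 0.44 when single libraries were left out, at -0.08 without LN-BEC replicate 1 and -0.11 without LN-BEC replicate 2, and passed the threshold at 0.47 (adjusted p = 0.00157) without LN-LEC replicate 4 and LN-BEC replicate 3 together. Gadd45g (D-LEC minus LN-BEC) ran from -0.16 to 0.11 when single libraries were left out, and was 0.0037 with only both populations fitted, 0.03 without LN-BEC replicate 2, 0.11 without LN-BEC replicate 3, 0.11 without D-LEC replicate 1 and 0.14 without LN-LEC replicate 4 and LN-BEC replicate 3 together. When deviations were taken from the median of the population instead of its mean, the median log2 deviation of members went from 0.048 to 0 in D-LEC replicate 2, from -0.19 to 0 in LN-BEC replicate 1, from -0.17 to 0 in LN-BEC replicate 2, from -0.047 to 0 in D-LEC replicate 1, from -0.20 to -0.052 in LN-LEC replicate 2, from -0.19 to -0.054 in LN-LEC replicate 3 and from -0.049 to 0.044 in LN-LEC replicate 1, and in LN-LEC replicate 4 and LN-BEC replicate 3 it was 0.36 and 0.46 compared to 0.34 and 0.38. Fosl1, Egr3 and Nr4a3 rest on 0 to 20 counts per library, at which differences were hardly detectable. No paired analysis was possible because the labels give no replicate numbers shared between populations.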
